A study of Mus musculus with 12 samples.

Results

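GDNF and the receptor parts that carry its signal were described in ribosome-associated RNA of the mouse gut wall, using the rows of 4 genes out of the 12975 in the count table: Gdnf, the ligand; Ret, the signalling receptor; and Gfra1 and Gfra2, its co-receptors. The genes were taken by name, with earlier results of these data known. The material came from 6 female mice of the line PLPCreERT2 Rpl22HA (strain B6J.129(Cg)-Rpl22tm1.1Psam/SjJ), and it was the small intestinal muscle layer with its adherent myenteric plexus, from which mucosa and submucosa had been stripped. In these mice tamoxifen switches on a Cre recombinase directed chiefly to enteric glia, and Cre then puts an HA tag on the ribosomal protein Rpl22, so that ribosomes of the cells with active Cre can be pulled down. Every mouse, controls included, carried Cre and the tag and received tamoxifen at 10 to 12 weeks of age as 2 intraperitoneal injections of 100 µl at 15 mg/ml in Miglyol 812, and tissue was taken 3 to 4 weeks after the first injection. T0 stands for 3 naive mice (numbered 1, 2 and 4) and T3 for 3 other mice (numbered 1, 3 and 4) killed 3 h after intestinal manipulation, a surgical handling of the bowel that inflames its muscle layer. The lysate of each mouse was divided between an anti-HA antibody (HA) and a mouse IgG1 isotype control antibody (IgG), which gave 4 groups of 3 libraries. The IgG library is the background of the same animal.

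GDNF is a secreted neurotrophic factor that does not bind RET on its own: it first binds GFRα1, a co-receptor held to the membrane by a lipid anchor, and the complex then brings RET molecules together and switches on their tyrosine kinase. GFRα2 does the same mainly for neurturin, the closest relative of GDNF. In the developing gut, GDNF from the gut wall guides and expands the RET-bearing neural crest cells from which enteric neurons and glia arise, and loss of RET signalling leaves the distal bowel without ganglia.

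The 4 genes lie on different chromosomes of the mm10 build (GRCm38, GENCODE M21 annotation). Gdnf spans chr15:7810846-7837575 on the plus strand with 1 annotated transcript, and Gfra2 spans chr14:70890120-70979838 on the plus strand with 3. Ret spans chr6:118151745-118197718 on the minus strand with 2 transcripts, and Gfra1 spans chr19:58235604-58455909 on the minus strand with 9. Reads were counted near annotated 3′ ends, of which Gfra1 has 8 in this annotation, and the window of one of them holds the gene Gm16277 on the opposite strand. Whether counting used strand is not given in the sources used here, so a share of Gm16277 in the Gfra1 counts cannot be told apart.

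Start-site windows of 250 bases before and 50 bases after an annotated start are printed for Gdnf, the member whose HA level differed between the time points, and for Gfra1, whose HA level did not pass the same test. They come from the set of RefSeq windows (GRCm38.p6) used here, which lacked windows for Ret and Gfra2. For the 4 genes it held 3 windows, 2 for Gdnf and 1 for Gfra1, so these were the only ones that could be printed. Each runs 5′ to 3′ on the strand of the gene, and capitals mark the motifs found in it on either strand.
Gdnf, first window, chr15:7809798-7810097, plus strand: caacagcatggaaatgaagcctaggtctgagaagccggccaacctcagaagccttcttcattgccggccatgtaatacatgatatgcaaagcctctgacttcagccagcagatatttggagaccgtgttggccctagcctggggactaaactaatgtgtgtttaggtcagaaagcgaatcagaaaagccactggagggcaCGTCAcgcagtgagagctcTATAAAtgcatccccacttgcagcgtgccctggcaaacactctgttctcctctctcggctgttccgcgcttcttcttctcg
Gdnf, second window, chr15:7813477-7813776, plus strand: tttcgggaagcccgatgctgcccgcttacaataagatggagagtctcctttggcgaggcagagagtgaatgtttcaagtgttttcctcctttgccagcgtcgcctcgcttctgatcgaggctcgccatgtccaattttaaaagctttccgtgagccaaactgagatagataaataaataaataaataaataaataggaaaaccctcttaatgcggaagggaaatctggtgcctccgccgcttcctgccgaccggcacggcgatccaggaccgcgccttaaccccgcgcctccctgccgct
Gfra1, chr19:58455349-58455648, minus strand: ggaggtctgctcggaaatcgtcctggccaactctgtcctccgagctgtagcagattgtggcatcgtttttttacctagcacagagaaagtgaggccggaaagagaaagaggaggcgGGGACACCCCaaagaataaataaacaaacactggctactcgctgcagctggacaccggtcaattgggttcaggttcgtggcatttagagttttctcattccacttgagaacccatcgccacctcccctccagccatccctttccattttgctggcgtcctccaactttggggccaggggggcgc
The motifs searched were AP-1 (TGACTCA), the cAMP response element CRE (TGACGTCA), the shorter core of the CRE (TGACG, which also lies within the full element), a TATA box (TATAAA), EGR (GCGTGGGCG), NF-kB and the CArG box. The first Gdnf window held this core on the minus strand, at positions -50 to -46 from the start, and a TATA box at -31 to -26. Of 32851 RefSeq windows of the same length, 20.8% held the core and 13.6% held TATAAA. The second Gdnf window held none of these motifs, and the Gfra1 window held an NF-kB match at -134 to -125, as did 4.51% of all windows. AP-1 was in 5.20% of windows, the full CRE in 1.79%, EGR in 0.612% and the CArG box in 1.63%. Counts from 3′ ends do not show which start was used, and GENCODE places the start of Gdnf apart from both RefSeq starts.

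Library totals were 1221788 to 2870591 UMI counts (unique molecules) in HA and 88136 to 1289833 in IgG, and the IgG T3 libraries, with 88136, 92022 and 248522 counts, were the shallowest. Levels are given as CPM, counts scaled to a library total of 1000000. 3 counts, the limit that a count of 0 allows, amount to between 1.05 and 34.04 CPM, depending on the library. Such limits and the intervals drawn below cover counting error only. The p-values come from tests that set a difference against the spread between the 3 libraries of a group. The main tests of HA vs IgG and of the interaction had no term for the mouse, although each mouse gave an HA and an IgG library. The glial label was checked against 8 markers (among them Sox10, S100b and Gfap): at T0 all 8 were higher in HA than in IgG (median log2 fold change 4.24), where 16.0% of the 9823 genes tested were called higher and 14.4% lower (edgeR adjusted p under 0.05), and at T3 7 of 8 were (median 3.24), where 11.8% of 7200 genes were called higher and 10.2% lower. The HA antibody also enriched markers of interstitial cells of Cajal, the pacemaker cells of the gut: Kit and Ano1 were higher in HA at T0 (log2 fold changes 3.64 and 3.35) and at T3 (1.31 and 1.73), all past the threshold, while Etv1 did not pass at T0 (0.42) and was not tested at T3. The summed level of these 3 markers was 2604 to 3366 CPM in HA T0 and 1170 to 1533 CPM in HA T3, so enrichment in HA is not a sign of glia alone. Smooth muscle markers were lower in HA at both times (6 of 6), yet their summed level in HA was still 12174 to 22784 CPM, so the HA libraries also held RNA of other cells. Rpl22, the tagged gene, had mean levels of 23.8 ± 7.60 CPM (SD, n = 3) in naive IgG libraries and 83.3 ± 9.02 CPM in naive HA libraries, with 24.4 ± 12.0 and 65.2 ± 5.89 CPM after manipulation, and its counts do not separate the tagged form from the untagged one. In bulk libraries, fewer cells of a type and less RNA per cell cannot be told apart.

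Gdnf, the ligand, was low in naive tissue and high in HA after manipulation. In HA T0 it had 38, 23 and 51 counts in mice 1, 2 and 4, or 14.6, 12.9 and 17.8 CPM. In HA T3 it had 263, 382 and 482 counts in mice 1, 3 and 4, or 215.3, 255.4 and 375.3 CPM. The lowest T3 library thus lay far above the highest T0 library, although the T3 libraries were the shallower ones. Mean levels were 15.1 ± 2.49 CPM (SD, n = 3) at T0 and 282.0 ± 83.2 CPM at T3, an 18.7-fold ratio. The fitted log2 fold change was 4.48 (SE 0.25, edgeR adjusted p 2.70e-11), and the call held in 13 of 13 alternatives. Of the 9441 genes tested in this comparison, 18.7% were called higher and 15.1% lower, and 56 genes had a larger log2 fold change than Gdnf.

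**Figure D1:**
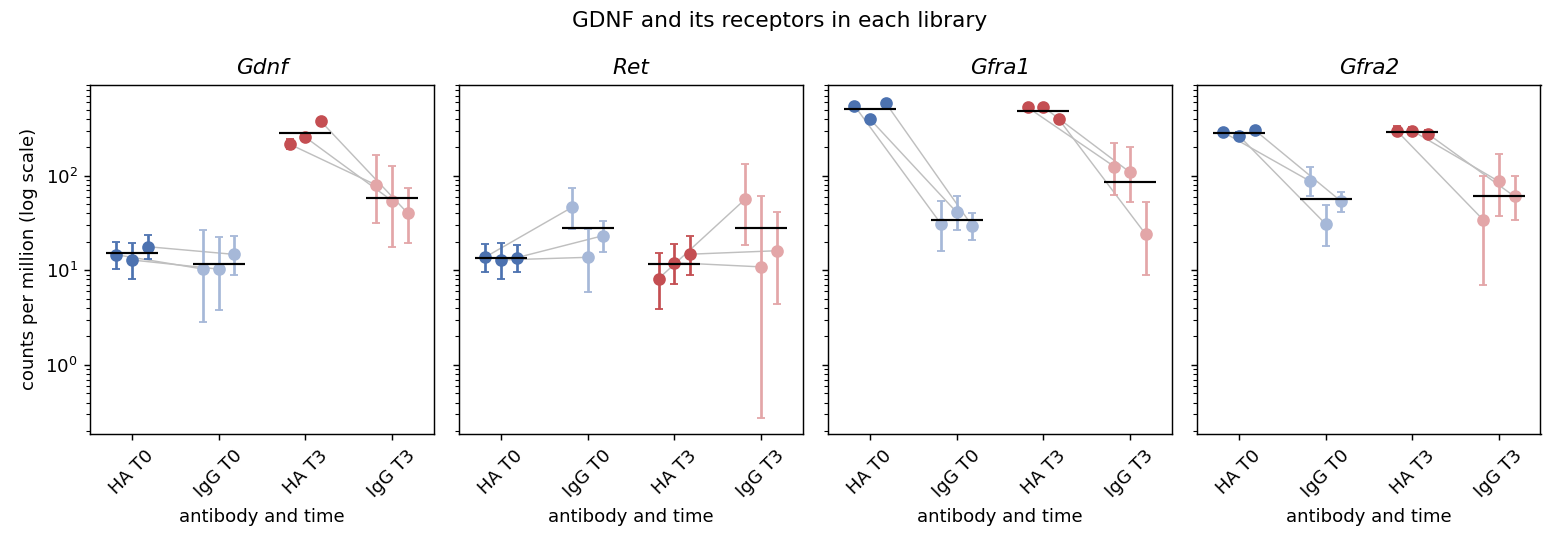
CPM (log axis) of Gdnf, Ret, Gfra1 and Gfra2 in each of the 12 libraries, by antibody and time. Points are libraries, vertical bars exact Poisson 95% intervals of the count, black lines group means (n = 3), and grey lines join the HA and IgG libraries of one mouse. Gdnf in HA T3 (215.3 to 375.3 CPM) lies above all other Gdnf libraries, Gfra1 and Gfra2 are higher in HA than in IgG at both times, and Ret is not.

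The IgG libraries gave the background for Gdnf. IgG T0 libraries of mice 1, 2 and 4 had 4, 6 and 19 counts (10.3, 10.3 and 14.7 CPM, mean 11.8 ± 2.56), and these values overlapped those of HA T0. Within a mouse, the HA level at T0 was 1.42, 1.25 and 1.21 times the IgG level, and the fitted difference did not pass (log2 fold change 0.26, SE 0.38, edgeR adjusted p 0.628). In naive tissue, Gdnf RNA was therefore not distinguishable from the pull-down background at this depth. At T3 the IgG libraries of mice 1, 3 and 4 had 7, 5 and 10 counts, or 79.4, 54.3 and 40.2 CPM (mean 58.0 ± 19.8). Each HA T3 library exceeded every IgG T3 library, with within-mouse ratios of 2.71, 4.70 and 9.33. Here HA passed the test against IgG (log2 fold change 2.49, SE 0.37, edgeR adjusted p 0.000138).

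Gdnf was also higher at T3 than at T0 among the IgG libraries, on few counts. The 3 IgG T3 values lay above the 3 IgG T0 values, with a ratio of means of 4.93 and a log2 fold change of 2.08 (SE 0.50, edgeR adjusted p 0.0262), where 4.43% of 5219 genes were called higher and 1.03% lower. This call was lost when any 1 of the 6 libraries was left out (adjusted p 0.0936 to 0.151). The summed level of the 8 glial markers was also higher in the IgG T3 libraries of mice 1 and 3, but not in that of mouse 4: it was 172.6, 226.3 and 182.2 CPM in IgG T0 and 941.7, 869.4 and 217.3 CPM in IgG T3 of mice 1, 3 and 4, and no marker was at 0 in a whole group. The Gdnf level in IgG T3 of mouse 4, though the lowest of the 3, was still above every IgG T0 level. Gfap, one of these 8 markers, itself rose over time, from 118.3 to 1715 CPM in HA and from 5.47 to 118.4 CPM in IgG. In IgG its log2 fold change was 4.18 (edgeR adjusted p 6.40e-05). The marker sum thus does not gauge the amount of glial RNA alone. The part of glial RNA in the IgG rise was not tested.

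Whether Gdnf changed more in HA than in IgG was asked by the interaction of antibody and time over all 12 libraries. The rise was larger in HA by 2.49 on the log2 scale (SE 0.51, edgeR adjusted p 0.0219), where 0.301% of 10314 genes were called higher and 0.0291% lower. The median over all genes was 0.18 (-0.18 with total counts as scaling), and 296 genes had a larger value than Gdnf. The difference kept its direction in 18 of 18 alternatives (2.12 to 2.69), but its adjusted p ranged from 0.00337 to 0.261 and 8 of 18 passed. The call was lost with relative log expression (RLE) size factors in edgeR (0.0507) and with total counts as scaling (0.0983). It was also lost in 8 of the 12 fits that left out 1 library, the highest being 0.261 without IgG T0 of mouse 4. Those 8 left out HA T0 of mouse 1, 2 or 4, IgG T0 of mouse 4, HA T3 of mouse 3 or 4, or IgG T3 of mouse 3 or 4. With the mouse as a block the value was 2.51 (edgeR adjusted p 0.00337). The DESeq2 Wald test gave 2.32 (adjusted p 0.00842).

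**Figure D2:**
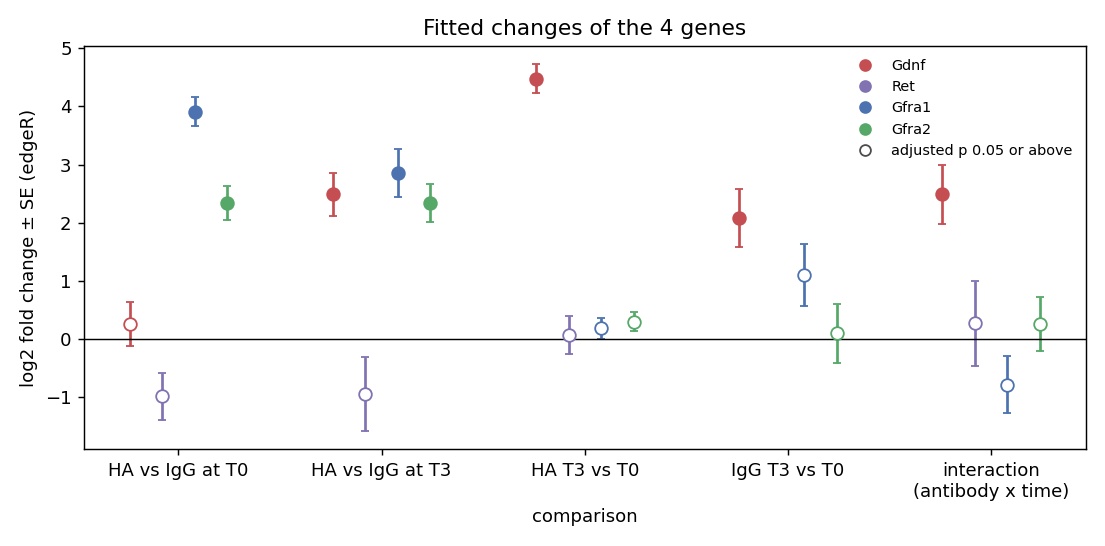
Fitted log2 fold changes (edgeR) of the 4 genes in the 5 comparisons, with bars of 1 standard error. Filled points passed an adjusted p of 0.05 and open points did not. Gdnf has the highest value of the 4 genes in both comparisons over time (4.48 in HA, 2.08 in IgG), and Ret was not tested in IgG T3 vs T0.

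Ret encodes the kinase that turns binding of the ligand into a signal, and its RNA was not enriched by the HA antibody. Counts in HA T0 were 36, 23 and 39 (13.8, 12.9 and 13.6 CPM) in mice 1, 2 and 4, and in IgG T0 they were 18, 8 and 30 (46.4, 13.7 and 23.3 CPM). The IgG level of mouse 2 lay within the HA range and the other two lay above it. Means were 13.4 ± 0.506 CPM in HA and 27.8 ± 16.8 CPM in IgG, and the log2 fold change of -0.99 (SE 0.40) did not pass (edgeR adjusted p 0.0784). With the mouse as a block the value was -0.97 and passed (adjusted p 0.0428), and it also passed without the IgG library of mouse 2 (0.0292). Among 13 alternatives, those 2 gave a call, and the adjusted p ranged from 0.0292 to 0.299.

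At T3, Ret had 10, 18 and 19 counts in HA (8.18, 12.0 and 14.8 CPM) and 5, 1 and 4 counts in IgG (56.7, 10.9 and 16.1 CPM) of mice 1, 3 and 4. The groups overlapped, the within-mouse ratios of HA to IgG were 0.144, 1.11 and 0.919, and the log2 fold change was -0.94 (SE 0.63, edgeR adjusted p 0.310). It was -0.16 without the IgG library of mouse 1 and ranged from -1.23 to -0.16 over its 10 alternatives, none of which passed. HA levels at T3 (11.7 ± 3.32 CPM) and T0 overlapped, with a log2 fold change of 0.07 (SE 0.33, adjusted p 0.890). Ret was too low to be tested between the IgG groups, where T3 had 1 to 5 counts, and its interaction value was 0.27 (SE 0.73, adjusted p 0.936).

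Enteric neurons are a known site of Ret in the adult gut. Neuronal markers stood on the same side in these libraries, as did markers of several other cell types. Of 10 neuronal markers tested at T0 (among them Tubb3, Prph and Snap25), 7 were lower in HA than in IgG and 0 higher, with a median log2 fold change of -1.32 beside -0.02 over all genes. At T3 3 of 9 were lower (median -0.66, beside 0.02 over all genes). Over all genes, 14.4% were called lower in HA at T0 and 10.2% at T3. The summed level of 11 neuronal markers was 3501, 1560 and 2478 CPM in IgG T0 of mice 1, 2 and 4, the same order as Ret in those 3 libraries, and 1163 to 1368 CPM in HA T0. In IgG T3 of mice 1, 3 and 4 the sum was 2564, 1521 and 2990 CPM, an order that differed from that of Ret, which was highest in mouse 1. A lower level in HA was not particular to neuronal markers. At T0 it was also called for 6 of 6 smooth muscle markers (median -1.41), 4 of 4 fibroblast markers (-1.57) and 4 of 4 mesothelial markers (-1.92). Macrophage markers had a median of -0.65, with 0 of 5 called. The part of RNA of neurons or of these other cells in the Ret values was not tested.

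Gfra1, the co-receptor for GDNF, was among the genes most enriched by the HA antibody. HA T0 libraries of mice 1, 2 and 4 had 1434, 710 and 1696 counts (550.6, 396.7 and 590.8 CPM), and IgG T0 libraries had 12, 24 and 38 (30.9, 41.1 and 29.5 CPM). The groups were far apart, with within-mouse ratios of 17.8, 9.64 and 20.1, a log2 fold change of 3.91 (SE 0.25, edgeR adjusted p 9.59e-08) and 78 of 9823 genes with a larger one. In HA T3 of mice 1, 3 and 4 there were 644, 798 and 506 counts (527.1, 533.6 and 394.0 CPM), and in IgG T3 11, 10 and 6 (124.8, 108.7 and 24.1 CPM). HA remained above IgG in every mouse (4.22, 4.91 and 16.3 times), with a log2 fold change of 2.85 (SE 0.41, edgeR adjusted p 0.000101).

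Over time, Gfra1 did not pass in any comparison. Its HA means were 512.7 ± 102 CPM at T0 and 484.9 ± 78.8 CPM at T3, and the log2 fold change was 0.18 (SE 0.18, edgeR adjusted p 0.467) with TMM scaling and -0.09 with total counts. Between the IgG groups the value was 1.11 (SE 0.53, adjusted p 0.250), with the IgG T3 libraries of mice 1 and 3 high and that of mouse 4 below all 3 IgG T0 libraries. The libraries of mice 1 and 3 also held the high glial marker sums given above for IgG T3, and the part of glial RNA in them was not tested. The interaction value was -0.78 (SE 0.50, adjusted p 0.619).

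Gfra2, the co-receptor of neurturin, was likewise higher in HA at both times. At T0 the HA counts of mice 1, 2 and 4 were 750, 473 and 876 (287.9, 264.3 and 305.2 CPM) and the IgG counts 34, 18 and 69 (87.6, 30.9 and 53.5 CPM). At T3 the HA counts of mice 1, 3 and 4 were 366, 447 and 356 (299.6, 298.9 and 277.2 CPM) and the IgG counts 3, 8 and 15 (34.0, 86.9 and 60.4 CPM). HA and IgG did not overlap at either time, with log2 fold changes of 2.33 (SE 0.29, edgeR adjusted p 5.79e-05) and 2.34 (SE 0.33, adjusted p 7.25e-05). Its HA level was 285.8 ± 20.5 CPM at T0 and 291.9 ± 12.7 CPM at T3 (log2 fold change 0.30, SE 0.16, adjusted p 0.174). Neither the IgG groups (0.10, SE 0.50, adjusted p 0.938) nor the interaction (0.26, SE 0.46, adjusted p 0.892) passed.

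In HA vs IgG, the IgG level can be read as a share of the HA level. At T0 it was 6.60% for Gfra1 and 20.1% for Gfra2, beside a median of 4.78% (3.77% to 8.81%) over the 8 glial markers, and at T3 it was 17.7% and 20.7% beside 15.5% (6.90% to 50.6%). For Ret the IgG level was 207% of the HA level at T0 and 239% at T3, beside medians of 250% and 167% over the 11 neuronal markers. The neuronal markers ranged from 120% to 1403% at T0 and from 0% to 436% at T3. Shares were not worked out for the other cell types whose markers were lower in HA. For Gdnf the share was 78.1% at T0 and 20.6% at T3. Gfra1 thus lay within the range of the glial markers at both times, and Gfra2 lay above it at T0 and within it at T3. Whether the Gfra1 and Gfra2 RNA came from glia or from interstitial cells of Cajal was not tested. These shares compare means of 3 libraries and carry no test of their own.

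**Figure D3:**
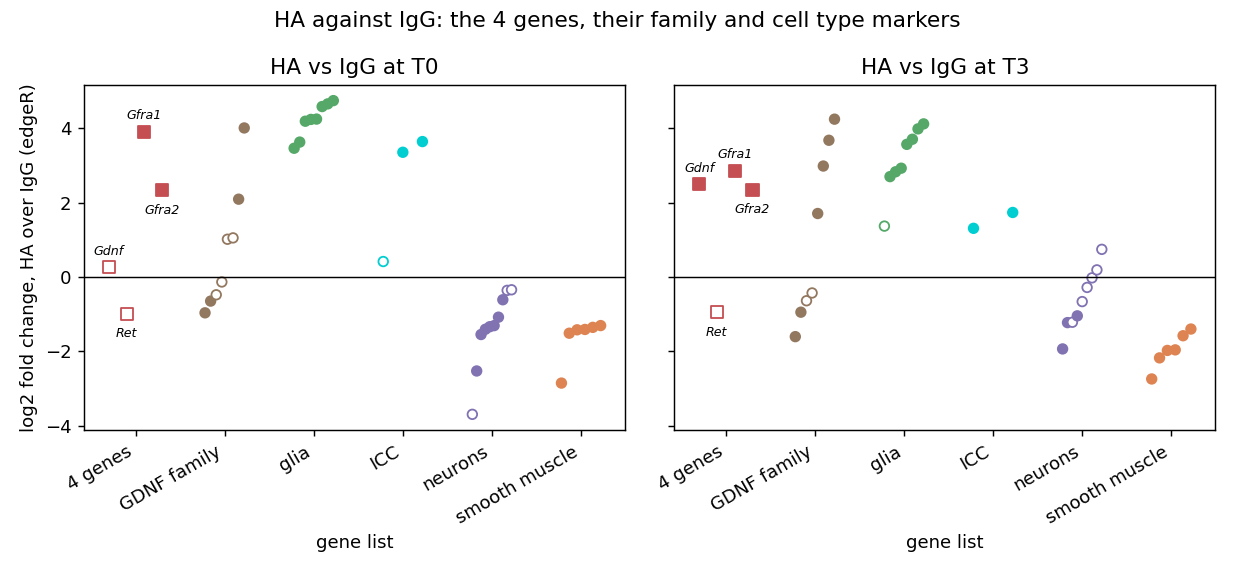
Log2 fold change of HA over IgG (edgeR) at T0 and T3 for the 4 genes (squares), other genes of the GDNF family, and markers of glia, interstitial cells of Cajal (ICC), neurons and smooth muscle (circles). Filled symbols passed an adjusted p of 0.05. Gfra1 (3.91 and 2.85) and Gfra2 (2.33 and 2.34) lie above 0 at both times, as do markers of glia and of interstitial cells of Cajal, Ret (-0.99 and -0.94) lies below 0 without passing, and Gdnf passed at T3 (2.49) and not at T0 (0.26).

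Other ligands, co-receptors and binding partners of the family were read from a list of 11 genes, of which Pspn and Gfral were not analysed here. In HA T3 vs T0, 3 of 9 tested genes rose and 1 fell, with a median log2 fold change of 0.22 beside -0.02 over all genes, of which 18.7% were called higher and 15.1% lower. Nothing particular to this or the following lists is read from such small counts. The median was -0.05 and the counts were 2 and 2 with total counts as scaling, a setting that moved the median of all genes to -0.29. Gdf15, a stress hormone whose receptor GFRAL also signals through RET, was at 4.36 ± 0.562 CPM at T0 and 259.9 ± 53.0 CPM at T3 (a log2 fold change of 6.13, SE 0.26, edgeR adjusted p 4.94e-13). Artn, which encodes artemin, the ligand of GFRα3, rose from 13.1 ± 0.790 to 30.2 ± 3.10 CPM (1.47, SE 0.26, adjusted p 0.000237). Sdc3, a proteoglycan that binds GDNF, rose by a smaller amount (0.51, SE 0.17, adjusted p 0.0284), a call that was lost with total counts as scaling (0.24, adjusted p 0.275). Gas1, a membrane protein related to the GFRα receptors, fell from 194.5 ± 7.66 to 39.3 ± 2.58 CPM (-2.04, SE 0.19, adjusted p 3.94e-08). Gas1 was lower in HA than in IgG at both times (-0.96 and -1.60, adjusted p 0.00372 and 0.00758). In IgG the main test also called a fall (-1.51, SE 0.41, adjusted p 0.0474). That IgG call was lost with RLE size factors and with total counts as scaling. Of 4 fibroblast markers, 2 fell in HA and 1 in IgG, among them Dcn (-1.79 and -1.82), and the summed level of the 4 went from 533 to 744 CPM in HA T0 down to 135 to 262 CPM in HA T3. The part of fibroblast RNA in the fall of Gas1 was not tested.

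The remaining co-receptors and neurturin were added to the description after their values had been seen. Gfra3, the artemin co-receptor, was at 22.1 ± 1.81 CPM in HA T0 and 18.4 ± 5.43 CPM in HA T3, and had 0 to 3 counts in each IgG T0 library and 0 in each IgG T3 library. Gfra4, the persephin co-receptor, was on the other side, at 102.4 ± 10.4 CPM in HA T0 and 155.9 ± 24.1 CPM in IgG T0 (log2 fold change -0.65, SE 0.20, edgeR adjusted p 0.0250), and it did not pass at T3 (-0.64, SE 0.33, adjusted p 0.184). Nrtn, the ligand of GFRα2, was at 155.1 ± 22.4 CPM in HA T3 and 309.1 ± 73.1 CPM in IgG T3 (-0.95, SE 0.27, adjusted p 0.0174), while it passed neither at T0 (-0.48, SE 0.22, adjusted p 0.111) nor over time in HA (-0.09, SE 0.19, adjusted p 0.748). Over the family list, 2 of 8 tested genes were higher and 2 lower in HA at T0 (median 0.44, beside -0.02 over all genes, of which 16.0% were called higher and 14.4% lower), and 4 of 8 were higher and 2 lower at T3 (median 0.64, beside 0.02 and shares of 11.8% and 10.2%). Between the IgG groups 0 of 6 tested genes rose and 1 fell (median -0.20, beside -0.02 and shares of 4.43% called higher and 1.03% lower). The gene that fell was Gas1, whose call was lost under the other scalings, as given above. The interaction is given below for all lists together.

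Adaptors that couple active RET to its downstream pathways were read from 17 genes, of which Dok6, Plcg1 and Cbl were not analysed here. In HA T3 vs T0, 5 of 11 tested genes rose and 0 fell (median 0.16), beside 18.7% of all genes called higher and 15.1% lower. With total counts as scaling 5 rose and 2 fell (median -0.11). Stat3, a transcription factor that also serves cytokine receptors, went up from 112.1 ± 3.55 to 645.5 ± 58.1 CPM in HA (by 2.79 on the log2 scale, SE 0.18, edgeR adjusted p 1.67e-10). Grb2, an adaptor shared by many receptor kinases, rose from 135.8 ± 16.2 to 415.4 ± 62.9 CPM (1.88, SE 0.18, adjusted p 8.56e-08), and Gab2, a docking protein, from 24.7 ± 10.3 to 64.0 ± 8.24 CPM (1.64, SE 0.26, adjusted p 6.27e-05). Stat3 rose in IgG too (2.28, SE 0.35, adjusted p 0.00105), the only one of 7 adaptors tested there to pass. Between the IgG groups, 4.43% of all genes were called higher and 1.03% lower. In HA vs IgG, 1 of 12 was higher and 1 lower at T0 (median -0.04), and 1 of 10 was higher at T3 (median 0.25). The shares of all genes called higher and lower were 16.0% and 14.4% at T0, and 11.8% and 10.2% at T3. None of these adaptors is specific to RET.

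**Figure D4:**
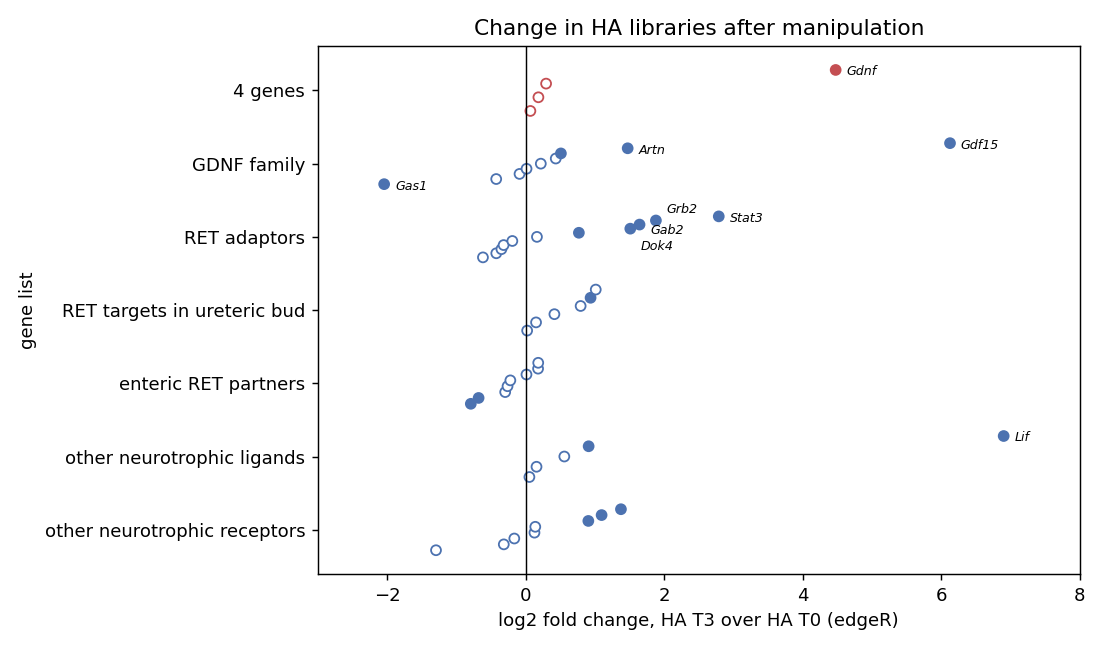
Log2 fold change between HA T3 and HA T0 (edgeR) for the 4 genes (red) and for 6 lists of related genes (blue), 1 circle per tested gene. Filled circles passed an adjusted p of 0.05, and genes that passed with a log2 fold change of more than 1.4 in size are named. Gdnf (4.48), Gdf15 (6.13) and Lif (6.90) lie apart from the rest, and Ret, Gfra1 and Gfra2 lie between 0.07 and 0.30 with TMM scaling.

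Genes known to respond to RET in the ureteric bud of the kidney were read as possible targets. Of 9, Cxcr4 and Myb were not analysed here, and in HA T3 vs T0 1 of 6 tested genes rose and 0 fell (median 0.60), a share no higher than the 18.7% of all genes called higher. The one was Dusp6, a phosphatase that limits ERK signalling, with 18.1 ± 2.46 CPM at T0 and 28.9 ± 6.95 CPM at T3 (log2 fold change 0.94, SE 0.27, edgeR adjusted p 0.0103), a call that was lost when only total counts were used for scaling (0.67, adjusted p 0.0583). In HA vs IgG, 2 of 6 were higher and 1 lower at T0 (median 0.47), and 2 of 4 were higher at T3 (median 1.19). The shares of all genes called higher and lower were 16.0% and 14.4% at T0, and 11.8% and 10.2% at T3. Only Spry1 was tested between the IgG groups, and it did not pass. Genes that work with RET in enteric nervous system development were a list of 10, of which Pax3 was not analysed here. In HA T3 vs T0, 2 of 8 tested genes fell and 0 rose (median -0.24), beside 15.1% of all genes called lower and 18.7% higher. Edn3, the endothelin ligand, fell from 556.8 ± 153 to 266.2 ± 31.6 CPM (-0.79, SE 0.19, adjusted p 0.00275), and Hand2, a transcription factor, from 833.9 ± 282 to 429.5 ± 41.2 CPM (-0.68, SE 0.20, adjusted p 0.0111). Of the same list, 5 of 8 genes were higher and 1 lower in HA than in IgG at T0 (median 1.79), 4 of 7 were higher and 1 lower at T3 (median 0.91), and 1 of 5 rose between the IgG groups (median -0.04). The shares of all genes in HA vs IgG are those given above, and between the IgG groups 4.43% were called higher and 1.03% lower.

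Other neurotrophic ligands were few among the genes that could be tested. Of 14, Bdnf, Cntf and Manf were not analysed here, and in HA T3 vs T0 2 of 5 tested genes rose and 0 fell (median 0.56). Over all genes, 18.7% were called higher and 15.1% lower. Lif, a cytokine of the interleukin 6 family, rose from 1.88 ± 1.71 CPM (2 to 10 counts) to 198.6 ± 49.6 CPM (225 to 326 counts; log2 fold change 6.90, SE 0.38, edgeR adjusted p 1.47e-09). Clcf1, a ligand of the CNTF receptor, rose from 31.5 ± 4.30 to 49.1 ± 7.79 CPM (0.91, SE 0.22, adjusted p 0.00356). In HA vs IgG, 1 of 5 ligands was higher and 1 lower at T0 (median 0.77), 2 of 5 were higher at T3 (median 2.00), and 0 of 3 passed between the IgG groups (median 0.11). The shares of all genes called higher and lower were 16.0% and 14.4% at T0, 11.8% and 10.2% at T3, and 4.43% and 1.03% between the IgG groups.

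Of 9 other neurotrophic receptors analysed, 3 of 8 tested genes rose in HA T3 vs T0 and 0 fell (median 0.13). Over all genes, 18.7% were called higher and 15.1% lower. With total counts as scaling 3 rose and 1 fell, and the median was -0.14. Ngfr, the low-affinity neurotrophin receptor, rose from 519.0 ± 77.7 to 1123 ± 140 CPM (1.38 on the log2 scale, SE 0.18, edgeR adjusted p 7.01e-06), Il6st, the shared signalling subunit of LIF and CNTF receptors, from 430.5 ± 94.4 to 673.5 ± 52.3 CPM (0.90, SE 0.19, adjusted p 0.000880), and Alk, a receptor kinase, from 10.5 ± 1.53 to 18.7 ± 3.02 CPM (1.10, SE 0.31, adjusted p 0.00951). In HA vs IgG, 3 of 8 were higher at T0 (median 0.42), 2 of 7 were higher and 1 lower at T3 (median 0.78), and 0 of 4 passed between the IgG groups (median 0.60). The shares of all genes called higher and lower were 16.0% and 14.4% at T0, 11.8% and 10.2% at T3, and 4.43% and 1.03% between the IgG groups. In the interaction, 0 of the 51 genes tested from the 6 lists passed in edgeR's test, where 0.301% of 10314 genes were called higher and 0.0291% lower. Of the 51 genes, 10 had an unadjusted p under 0.05 and DESeq2 called 3. The share of all genes with an unadjusted p under 0.05 is not given here, and nothing is read from these counts.

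Genes with levels most like those of the 4 members were sought by Pearson correlation of log2 CPM with 10313 other genes over the 12 libraries. These libraries differ in depth, antibody and time, so a high value can reflect differences between the groups and not between libraries of a group. The 6 HA libraries still differ in time, so the same holds for values over them. Closest to Gdnf were Srxn1 (r = 0.99), Tmem11 (0.98), Mat2a (0.98), Gdf15 (0.97) and Vasn (0.97), and over the 6 HA libraries these values were 1.00, 0.99, 1.00, 0.99 and 0.98. Srxn1, an antioxidant enzyme, went from 82.3 ± 2.89 CPM in HA T0 to 2190 ± 362 CPM in HA T3. Closest to Gfra1 were Plekhb1, Lpar1, Cpxm2, Islr and Eif1b, each at 0.99 over 12 libraries, but at 0.77, 0.28, 0.36, 0.08 and 0.85 over the 6 HA libraries. Closest to Gfra2 were Hrc (0.98), Hsd17b12 (0.98), Tspan15 (0.98), Nsg2 (0.96) and Cela1 (0.96), at 0.88, 0.83, 0.78, 0.43 and 0.86 in HA. Closest to Ret were Cd24a (0.90), Pfn2 (0.89), Mtpn (0.89), Ppp3ca (0.88) and Hoxb5 (0.88), at -0.01, 0.42, 0.87, 0.47 and 0.77 in HA, from counts of 1 to 39 per library. Among the members, Gfra1 and Gfra2 had r = 0.87, Gdnf and Gfra1 0.49, Gdnf and Gfra2 0.43, Gdnf and Ret -0.16, Ret and Gfra1 -0.45, and Ret and Gfra2 -0.48 over the 12 libraries.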

How the data were processed

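RNA from 12 pull-down libraries of 6 mice was sequenced by bulk MARS-seq, which tags the 3′ ends of molecules with identifiers (UMIs), in pools of up to 8 samples whose membership is not given in the sources used here. Per the labels, the authors used cutadapt for trimming and STAR 2.4.2a for mapping to mm10, kept unique hits and counted molecules with HTSeq from 1000 bases upstream to 100 downstream of 3′ ends of a Gencode annotation given as version 10. The deposited table holds raw counts of molecules for each gene. A filter of at least 5 reads in 1 or more samples is stated, while 189 genes had no count of 5 or more. Counts were tested with edgeR 4.0.16 (R 4.3.3; quasi-likelihood F-test, TMM scaling, filterByExpr) with Benjamini-Hochberg adjustment over all genes of a comparison and a threshold of 0.05. Contrasts of 2 groups used their 6 libraries and the interaction all 12, without covariates. SE is the log2 fold change divided by the square root of F. Correlations used edgeR's log2 CPM with a prior count of 2. The fitting code was tested on simulated data.

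HA and IgG libraries with the same number at one time came from the same mouse, and their deviations from group means correlated at 0.268 to 0.273 at T0 and 0.0887 to 0.162 at T3. The same number at T0 and T3 marks different mice. Alternatives were RLE size factors in edgeR, total counts, 2 other filters, the DESeq2 1.42.0 Wald test, 1 fit of 12 libraries, a replicate block and leaving out each library. The 4 members and the lists were chosen with earlier results of these data known. List genes named are at most 3 per direction past the threshold in HA T3 vs T0, by smallest p, apart from those said to be added. Likeness gives the 5 highest correlations per member. Some genes of the lists are not reported here by name but remain in the list counts.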

Additional observations from a re-analysis of the deposited data

Results flagged for a closer look

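The change of Gdnf with time differed between the antibodies in the main test of the difference itself, and 8 of 18 alternatives passed. Its rise from T0 to T3 was larger in HA than in IgG by 2.49 on the log2 scale (SE 0.51, edgeR adjusted p 0.0219, and 0.00337 to 0.261 over its alternatives). All 3 HA T3 libraries lay above all 3 IgG T3 libraries, which had 5 to 10 counts each. Groups of 3 libraries were too small for a test of single outlying samples.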

How the results depend on the processing

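Of 19 tested values of the 4 genes, the calls of Gfra1 and Gfra2 in HA vs IgG at T0 and T3, and of Gdnf in HA vs IgG at T3 and in HA T3 vs T0, held in 13 of 13 alternatives each. Ret in HA vs IgG at T0 passed with the replicate block (-0.97, adjusted p 0.0428) and ranged from -1.27 to -0.53 with 1 library left out, passing without IgG T0 of mouse 2. Gdnf in IgG T3 vs T0 was 1.94 with the replicate block (adjusted p 0.119) and 1.85 to 2.35 with 1 library left out, where 0 of 6 fits passed. In comparisons over time the replicate block joins different mice that share a number, so it is no pairing there. The Gdnf interaction was 2.32 with RLE size factors in edgeR, 2.12 with total counts and 2.14 to 2.69 with 1 library left out. With total counts the sign turned for Gfra1 (-0.086) and Ret (-0.20) in HA T3 vs T0 and for Gfra2 (-0.10) and Ret (-0.090) in the interaction. Under the replicate block it turned for Gfra1 in HA T3 vs T0 (-0.054) and Gfra2 in IgG T3 vs T0 (-0.35), and without a filter for the latter (-0.012). With 1 library left out, Ret ranged from -0.13 to 0.28 in HA T3 vs T0 and from -0.19 to 0.93 in the interaction, and Gfra2 from -0.25 to 0.43 in IgG T3 vs T0 and from -0.12 to 0.49 in the interaction. None of these turned values passed, and their causes were not tested. The block changed no other call of the 4 genes. With the mouse as a block, the lists in HA vs IgG at T0 had 2 higher and 3 lower for the GDNF family, 2 and 1 for other ligands and 3 and 1 for other receptors. At T3 the adaptors had 2 and 0, and in the interaction 1 adaptor was higher and 1 enteric partner lower. The shares of all genes called with the block are not given here, and nothing is read from these list counts.

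Across times the shared number is only a name: same-numbered libraries correlated at 0.0111 to 0.169. Genes past the threshold numbered 1578 in HA vs IgG at T3 and 849 to 1019 without an HA T3 library or IgG T3 of mouse 4; 285 in IgG T3 vs T0, 519 without a filter, 705 in 1 fit of 12 libraries and 162 to 181 without IgG T0 of mouse 2 or 4 or IgG T3 of mouse 4; and 34 in the interaction, 8 with total counts, 20 with size factors, 80 by DESeq2, 158 with the replicate block and 5 to 95 with 1 library left out. Ret was filtered out in IgG T3 vs T0 and in the 3 fits of HA vs IgG at T3 without an HA library, and DESeq2 gave it no adjusted p in the interaction. By Spearman correlation, 0 of the 5 genes closest to Gdnf, Ret or Gfra1 and 1 of those closest to Gfra2 were the same. TMM library sizes raised the HA T3 means of Gfra1 to 575.2 and of Gfra2 to 346.2 CPM. Depth limits the IgG T3 libraries most: a gene with 3 counts there stands at up to 34.04 CPM.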
